A study of Homo sapiens with 4 samples.

Results

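The genes described here are 9 genes of MHC class I antigen presentation: the heavy chain genes HLA-B, HLA-C, HLA-E and HLA-F, the light chain gene B2M, the peptide transporter genes TAP1 and TAP2, the tapasin gene TAPBP and the regulator gene NLRC5. They were taken by gene name from transcript tables of HCCLM3, an established human hepatoma cell line. All 9 had a row, and together they held 25 of the 38510 transcripts and 9 of the 13036 genes listed. A transcript was listed where it exceeded about 0.5 FPKM (fragments per kilobase of transcript, scaled to the fragments mapped in the library) in 1 sample or more, since no listed transcript had a maximum under 0.504 FPKM.

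RNA was sequenced from 4 samples in 2 groups of 2. The shCtrl cells stably carried a control hairpin from a lentivirus, and the shKIAA1429 cells stably carried a lentiviral hairpin against KIAA1429, listed as VIRMA, a subunit of the complex that writes the RNA mark m6A. The comparison asks which transcripts differ in level when this subunit is lowered. A single hairpin sequence stood for the knockdown, and both groups had been infected with lentivirus. Nothing in the labels says that the replicates were separate cultures, so p-values measure only the spread between these samples, which may be technical.

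Class I molecules carry peptides from inside the cell to its surface, where CD8 T cells inspect them. A heavy chain pairs with beta-2-microglobulin in the endoplasmic reticulum, TAP1 and TAP2 pump peptides into that compartment, and tapasin holds the empty class I molecule at the transporter until a peptide is bound. Interferon raises most of these genes, and NLRC5 works with the RFX, CREB and NF-Y factors at a short promoter module shared by the class I heavy chains and B2M. In the healthy liver hepatocytes carry little class I, and tumor cells that lose it are seen less well by CD8 T cells.

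VIRMA was listed at 9.37 and 14.1 FPKM in shCtrl 1 and 2 and at 6.90 and 8.52 FPKM in shKIAA1429 1 and 2. Each knockdown sample was lower than each control, but the difference did not pass the test (log2 fold change −0.53, SE 0.24, limma adjusted p = 0.917). The summed FPKM was 370253 to 390224 per sample, mitochondrial transcripts took 9.29% to 10.6% of it, and the depth behind the values is unknown. Of the hepatocyte and hepatoma markers 1 of 12 was listed, SERPINA1 at 3.34 to 5.63 FPKM, while ALB, AFP, APOA1 and HNF4A had no row. Of the epithelial markers KRT8 and KRT18 were listed, together at 2089 to 2206 FPKM, and EPCAM and CDH1 had no row. Of the leukocyte markers 2 of 9 were listed, CD14 and CD68, summing to 46.7 to 56.3 FPKM, and PTPRC, CD3E and LYZ had no row. Endothelial and fibroblast markers were listed in 2 of 6 cases, COL1A1 at 3.54 to 6.76 FPKM and DCN at 0.120 to 1.06 FPKM. PECAM1, VWF, CDH5 and COL1A2 had no row.

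Promoter sequences are shown because the class I genes are known for shared elements there. The display was chosen with the levels in view. HLA-B, HLA-C and B2M, whose shKIAA1429 values both lay under the shCtrl values, stand first. RefSeq promoters, 250 bases before to 50 after the start of a gene (build GRCh38.p14), were found for 7 of the 9 members; HLA-E and NLRC5 had no entry. Each stretch below matched the GRCh37 genome once, and its position and strand there follow its sequence. Capitals mark AANNGAAA or its reverse complement, the core of the interferon-stimulated response element, and, where the pair was found 15 to 25 bases apart, TGACG followed by ATTGG, the cores of the CREB-type and NF-Y-type boxes of the class I module.
HLA-B: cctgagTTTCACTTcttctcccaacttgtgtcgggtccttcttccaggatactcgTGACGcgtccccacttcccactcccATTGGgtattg (chr6:31325027-31325117, minus strand)
HLA-C: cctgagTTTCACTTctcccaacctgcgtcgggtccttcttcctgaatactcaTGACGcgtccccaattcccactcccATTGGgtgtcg (chr6:31239939-31240026, minus strand)
B2M: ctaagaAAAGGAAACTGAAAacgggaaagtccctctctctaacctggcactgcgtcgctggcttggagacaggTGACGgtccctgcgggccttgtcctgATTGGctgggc (chr15:45003567-45003676, plus strand)
HLA-F: ccagagTTTCTCTTtctctc (chr6:29691049-29691068, plus strand)
TAP1: ggccgcTTTCGATTTCGCTTtcccct (chr6:32821596-32821621, minus strand)
TAP2: ctggggAAGCGAAAGCGAAAgctgcc (chr6:32806559-32806584, minus strand)
TAPBP: ggaggaAAGTGAAAGTGAAAggagga (chr6:33281854-33281879, minus strand)

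AANNGAAA, searched on both strands, was present in the promoters of 7 of the 7 members with an entry (for TAP1 in 1 of its 2 entries), and in 22.8% of all 35116 promoters of the table. The TGACG and ATTGG pair, searched on both strands in that order, was present in 3 members, HLA-B, HLA-C and B2M, and in 0.447% of all promoters. The bases between the 2 cores numbered 20 in HLA-B, 20 in HLA-C and 21 in B2M. The spacing was chosen after the member promoters had been read, so the shares describe these windows and are not a test. HLA-F, a heavy chain whose groups overlapped, had an entry that held ATTGG but no TGACG, and so lacked the pair as searched. The search took exact matches to the cores only. HLA-E, another heavy chain whose groups overlapped, had no entry and could not be compared. Among the 72 other genes tested whose promoters hold the pair, 10 lay below shCtrl in both shKIAA1429 samples (13.9%) and 13 lay above (18.1%), with a median log2 fold change of −0.0031. Fold changes were negative in 37 of them and positive in 35. Whether the pair bears on the levels of the members was not tested.

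The levels of the 9 members spanned HLA-E at the top and NLRC5 at the bottom, on the FPKM scale, which divides by transcript length. HLA-E averaged 106 FPKM over the 4 samples, place 440 among all 13036 genes, and lay above TAPBP in 4 of 4 samples with no overlap of their ranges. TAPBP (mean 72.9 FPKM) and HLA-B (mean 72.0 FPKM) overlapped and changed order between the groups, HLA-B being the higher in both shCtrl samples and TAPBP in both shKIAA1429 samples. With the transcript HLA-B-258, described below, counted under HLA-C, TAPBP was also the higher in shCtrl 2, at 63.3 FPKM against 61.1 FPKM. TAP1 (mean 38.7 FPKM), TAP2 (mean 28.0 FPKM) and B2M (mean 14.4 FPKM) came next, each overlapping the range of its neighbor, although TAP2 lay above B2M within each of the 4 samples. HLA-F (mean 5.01 FPKM), HLA-C (mean 4.78 FPKM) and NLRC5 (mean 4.29 FPKM) were lowest and overlapped one another, at places 7470, 7626 and 7980 among all genes. No listed transcript of B2M, HLA-F, HLA-C or NLRC5 was the representative (MANE) transcript of its gene. Whether this bears on their places in the order was not tested. HLA-B thus stood above HLA-C in every sample, although both are classical heavy chains. How far depended on HLA-B-258: with it counted under HLA-C, the means were 60.2 FPKM for HLA-B and 16.6 FPKM for HLA-C.

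**Figure D1:**
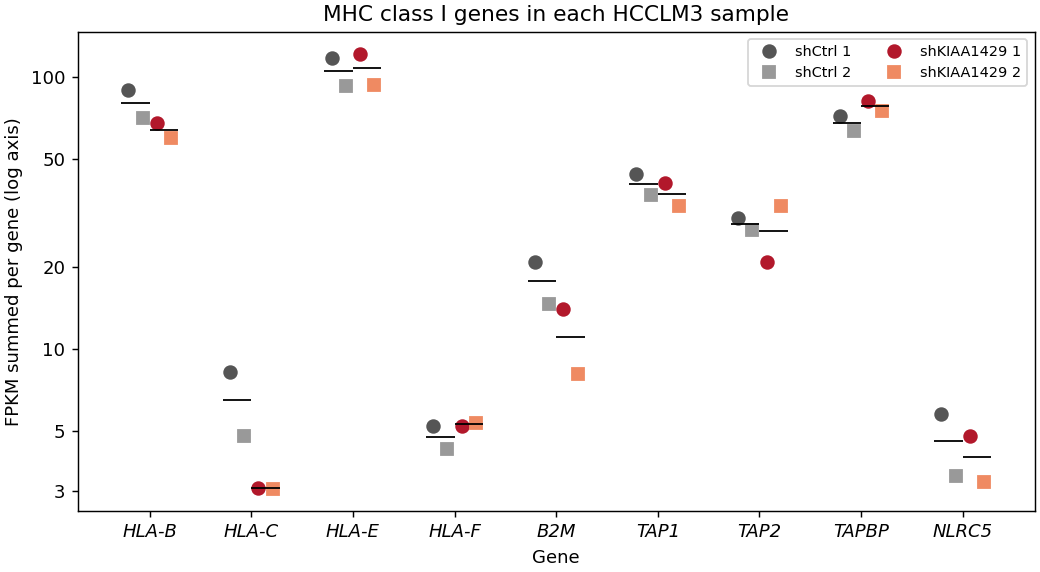
FPKM summed per gene (log axis) for each of the 9 MHC class I genes, with 1 point per sample and black bars at the mean of the 2 samples of a group. HLA-B, HLA-C and B2M lie lower in both shKIAA1429 samples than in both shCtrl samples, TAPBP lies higher, and the other 5 genes overlap.

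None of the 9 members passed both thresholds, an absolute log2 fold change over 1 at an adjusted p under 0.05, in limma over 11657 genes, where 0 genes passed (0% of those tested). The lowest adjusted p among the members was 0.803, for HLA-C. At an unadjusted p under 0.05 stood 1 member, HLA-C, and 656 of all genes (5.63%), and 0 members did so without shCtrl 1, without shKIAA1429 2 or with the transcript HLA-B-258, described below, counted under HLA-C. All 9 passed the filter on low values. In 3 members each shKIAA1429 value was lower than each shCtrl value, against 16.7% of all genes tested, and in 1 member each was higher, against 16.9%. Fold changes were negative in 6 of 9, with a median log2 fold change of −0.12 beside −0.0083 over all genes tested. That median rested on single libraries: it was 0.0077 without shCtrl 1 and 0.018 without shKIAA1429 2. With 1 sample left out fewer values are compared, and non-overlap is more frequent over all genes too. The members lying lower numbered 5 without shCtrl 2, beside 32.3% of all genes, and 5 without shKIAA1429 1, beside 30.6%. The members lying higher numbered 3 without shCtrl 1 (34.1% of all genes), 3 without shKIAA1429 1 (33.3%) and 2 without shKIAA1429 2 (33.0%). Without mitochondrial transcripts the shares of all genes were 21.4% below and 12.8% above, and the member counts stood at 3 and 1.

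HLA-B encodes a classical heavy chain that presents peptides to CD8 T cells. Its summed level was 89.9 and 70.7 FPKM in shCtrl 1 and 2 and 68.0 and 59.5 FPKM in shKIAA1429 1 and 2. The groups did not overlap, but shCtrl 2 and shKIAA1429 1 were close to each other. The group means were 80.3 ± 13.5 and 63.7 ± 5.99 FPKM (SD, n = 2 each), and the log2 fold change was −0.32 (SE 0.17, limma adjusted p = 0.936), or −0.15 without shCtrl 1 and −0.49 without shCtrl 2.

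The HLA-B level came from 3 listed transcripts on the minus strand of chromosome 6. HLA-B-249 (chr6:31321649-31324964, 8 exons), the representative MANE transcript, held 79.1% to 85.5% of it and stood at 71.1 and 60.5 FPKM in shCtrl and 56.3 and 49.9 FPKM in shKIAA1429. HLA-B-258 (chr6:31237268-31323181) was listed at 17.1 and 9.66 FPKM in shCtrl and 11.2 and 9.36 FPKM in shKIAA1429, and so overlapped between the groups. By its coordinates, read on the minus strand, HLA-B-258 runs from inside HLA-B to inside HLA-C, and it was not found in the GENCODE 44 annotation. HLA-B-250 (chr6:31323284-31324965), annotated with a retained intron, stood at 1.75 and 0.570 FPKM in shCtrl and 0.442 and 0.257 FPKM in shKIAA1429. HLA-B-250 was thus highest in shCtrl 1 by a wide margin.

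HLA-C, the other classical heavy chain here, is also the main class I ligand of inhibitory KIR receptors on natural killer cells. It stood at 8.22 and 4.79 FPKM in shCtrl 1 and 2 and, in shKIAA1429 1 and 2, at 3.08 and 3.05 FPKM. The shKIAA1429 samples nearly coincided and lay below both shCtrl samples, which differed widely from each other. The log2 fold change was −0.85 (SE 0.26, 95% interval −1.52 to −0.18, limma adjusted p = 0.803, or 0.0230 before adjustment). Leaving out shCtrl 1 gave a log2 fold change of −0.51, and leaving out shCtrl 2 gave −1.18.

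HLA-C was listed as 2 transcripts. HLA-C-203 (chr6:31236526-31239863, 8 exons) held 83.9% to 89.5% of the level and stood at 7.36 and 4.16 FPKM in shCtrl and 2.58 and 2.61 FPKM in shKIAA1429. HLA-C-210 (chr6:31237116-31239848) stood at 0.861 and 0.635 FPKM in shCtrl and 0.494 and 0.435 FPKM in shKIAA1429. Both transcripts thus had the same order of groups. With HLA-B-258 counted under HLA-C instead, HLA-C stood at 25.3 and 14.5 FPKM in shCtrl and 14.3 and 12.4 FPKM in shKIAA1429, and its log2 fold change was −0.49. This choice was added after the data were seen, and under it HLA-C lay above B2M in the order of mean levels.

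HLA-E, a nonclassical heavy chain, displays leader peptides of other class I chains to NKG2A receptors. It was listed as HLA-E-201 alone (chr6:30457244-30461982, plus strand, 8 exons), at 117 and 92.5 FPKM in shCtrl 1 and 2 and 122 and 93.7 FPKM in shKIAA1429 1 and 2. Replicate 1 was high and replicate 2 low in both groups, which overlapped almost entirely (log2 fold change 0.035, SE 0.19, 95% interval −0.47 to 0.54, limma adjusted p = 0.999).

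HLA-F, a nonclassical heavy chain that can reach the surface without peptide, stood at 5.20 and 4.29 FPKM in shCtrl 1 and 2 and 5.18 and 5.35 FPKM in shKIAA1429 1 and 2. The groups overlapped (log2 fold change 0.13, SE 0.16, limma adjusted p = 0.987). Its main transcript HLA-F-217 (chr6:29691117-29694302, plus strand, 7 exons) stood at 4.78 and 3.67 FPKM in shCtrl and 3.78 and 4.08 FPKM in shKIAA1429. The 2 minor transcripts were higher in both shKIAA1429 samples. HLA-F-229 stood at 0.223 and 0.255 FPKM in shCtrl and 0.923 and 0.260 FPKM in shKIAA1429, and HLA-F-220 at 0.198 and 0.364 FPKM in shCtrl and 0.481 and 1.02 FPKM in shKIAA1429. These minor transcripts did not reach the filter for testing.

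B2M encodes the light chain that every class I heavy chain needs. It stood at 20.9 and 14.6 FPKM in shCtrl 1 and 2 and, in shKIAA1429 1 and 2, at 14.02 and 8.07 FPKM. The groups did not overlap, though shCtrl 2 and shKIAA1429 1 lay side by side. The means were 17.8 ± 4.44 and 11.04 ± 4.21 FPKM (SD, n = 2 each), a log2 fold change of −0.66 (SE 0.31, limma adjusted p = 0.917), and without single samples it ranged from −0.30 (without shKIAA1429 2) and −0.42 (without shCtrl 1) to −0.91 (without shCtrl 2) and −1.03 (without shKIAA1429 1).

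The level of B2M was carried by B2M-204 (chr15:45003675-45011075, plus strand), at 19.2 and 12.7 FPKM in shCtrl and 10.2 and 6.63 FPKM in shKIAA1429. B2M-204 held 72.7% to 92.0% of the level and, like B2M-202 and B2M-205, was not found in the GENCODE 44 annotation. B2M-202 (chr15:45003685-45010357) stood at 1.24 and 1.23 FPKM in shCtrl and 1.17 and 0.814 FPKM in shKIAA1429. B2M-208 (chr15:45003711-45009227, 3 exons) overlapped between the groups at 0.443 to 0.697 FPKM. B2M-205 (chr15:45006705-45010342), a processed transcript in the file, was listed at 2.07 FPKM in shKIAA1429 1 and at 0 in the other 3 samples. Without it shKIAA1429 1 would have stood further below shCtrl 2 in the sum.

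TAP1 forms a peptide pump with TAP2 in the membrane of the endoplasmic reticulum. Its single listed transcript TAP1-201 (chr6:32812986-32821755, minus strand, 11 exons) stood at 44.1 and 36.7 FPKM in shCtrl 1 and 2 and 40.7 and 33.4 FPKM in shKIAA1429 1 and 2. As with HLA-E, replicate 1 was the higher in each group, and the groups overlapped (log2 fold change −0.12, SE 0.17, limma adjusted p = 0.987).

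TAP2 stood at 30.3 and 27.4 FPKM in shCtrl 1 and 2 and at 20.9 and 33.5 FPKM in shKIAA1429 1 and 2, so that the lowest and the highest sample were both shKIAA1429 (log2 fold change −0.12, SE 0.25, limma adjusted p = 0.999). The sum hid an exchange between its 3 transcripts, all on the minus strand. TAP2-202 (chr6:32789610-32806504) stood at 15.8 and 14.2 FPKM in shCtrl, was listed at 0 in shKIAA1429 1 and stood at 25.4 FPKM in shKIAA1429 2. TAP2-201 (chr6:32793192-32806557, 12 exons), the MANE transcript, stood at 3.96 and 3.73 FPKM in shCtrl, 19.1 FPKM in shKIAA1429 1 and 3.66 FPKM in shKIAA1429 2. The sample that lacked the one thus held most of the other, 91.4% of its TAP2 level being TAP2-201. TAP2-202 was not found in the GENCODE 44 annotation, and neither was TAP2-205, described next. How the quantification shared reads between these overlapping transcripts was not tested.

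TAP2-205 (chr6:32793187-32806547) was the one TAP2 transcript whose groups did not overlap, at 10.5 and 9.47 FPKM in shCtrl and 1.81 and 4.39 FPKM in shKIAA1429. Its span nearly matches that of TAP2-201, and it was lowest in shKIAA1429 1, the sample in which TAP2-201 was highest. How reads were shared between TAP2-205 and TAP2-201 was not tested. The log2 fold change of TAP2-205 was −1.50 (SE 0.38, limma adjusted p = 0.583 over 24996 transcripts, or 0.0195 before adjustment). It was the 1 member transcript of the 15 tested with an unadjusted p under 0.05, beside 6.28% of all transcripts tested, and with a pseudocount of 0.1 there were 2. No member transcript passed both thresholds, and 0 of all 24996 transcripts did (0% of those tested). Of the 15, 5 lay below in both shKIAA1429 samples against 16.8% of all transcripts tested, and 2 lay above against 16.7%. The 5 were HLA-B-249, HLA-C-203, B2M-204, B2M-202 and TAP2-205, and the 2 were TAPBP-234 and TAPBP-241.

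**Figure D2:**
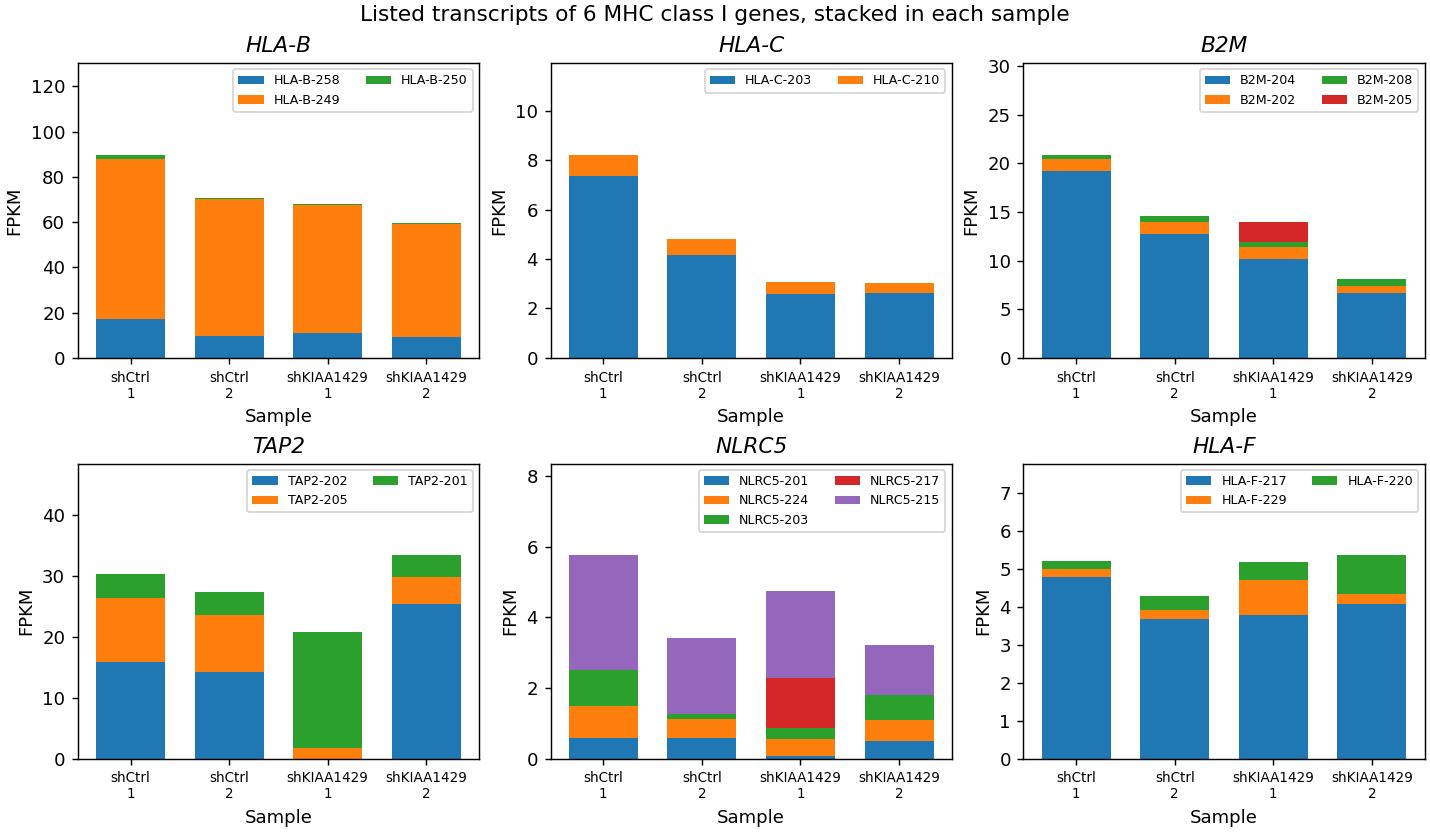
FPKM of each listed transcript, stacked to the gene sum, in the 4 samples for HLA-B, HLA-C, B2M, TAP2, NLRC5 and HLA-F. In HLA-B, HLA-C and B2M 1 transcript dominates in every sample, whereas TAP2 in shKIAA1429 1 is carried by another transcript than in the remaining samples.

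TAPBP encodes tapasin, which bridges the transporter and the empty class I molecule. It stood at 71.8 and 63.3 FPKM in shCtrl 1 and 2 and at 81.6 and 74.9 FPKM in shKIAA1429 1 and 2. It was the one member whose shKIAA1429 values both lay above both shCtrl values, by a margin smaller than the distance between replicates (log2 fold change 0.21, SE 0.13, limma adjusted p = 0.954). The MANE transcript TAPBP-234 (chr6:33267471-33282164, minus strand, 8 exons) held 95.4% to 97.1% of it. TAPBP-241 and TAPBP-237, the latter annotated for nonsense-mediated decay, each stayed between 0.792 and 1.81 FPKM.

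NLRC5, the transactivator of class I genes, stood at 5.76 and 3.41 FPKM in shCtrl 1 and 2 and at 4.76 and 3.23 FPKM in shKIAA1429 1 and 2. Replicate 1 was again the higher in each group, and the groups overlapped (log2 fold change −0.15, SE 0.28, 95% interval −0.88 to 0.59, limma adjusted p = 0.996). The interval leaves room for a change of either sign. Its leading transcript was NLRC5-215 (chr16:57059599-57095915, plus strand, 28 exons), at 3.25 and 2.16 FPKM in shCtrl and 2.47 and 1.43 FPKM in shKIAA1429. NLRC5-201 (chr16:57023410-57117436, 49 exons) stood at 0.576 and 0.584 FPKM in shCtrl and 0.0578 and 0.494 FPKM in shKIAA1429. NLRC5-217 was listed at 1.42 FPKM in shKIAA1429 1 and at 0 in the other 3 samples, the same sample in which NLRC5-201 was lowest. NLRC5-203 stood at 1.04 and 0.148 FPKM in shCtrl and 0.300 and 0.700 FPKM in shKIAA1429. NLRC5-224 stood at 0.900 and 0.523 FPKM in shCtrl and 0.508 and 0.605 FPKM in shKIAA1429. Both overlapped between the groups.

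Ratios within a sample do not depend on how that sample was scaled, and 11 were computed, the pairs being chosen with the levels in view. HLA-B stood at 0.767 and 0.764 of the HLA-E level in shCtrl 1 and 2 and at 0.559 and 0.635 in shKIAA1429 1 and 2. The shCtrl ratios nearly coincided, whereas the HLA-B levels themselves had not. B2M stood at 0.178 and 0.158 of HLA-E in shCtrl and at 0.115 and 0.0861 in shKIAA1429, and HLA-C at 0.0701 and 0.0518 in shCtrl and 0.0253 and 0.0325 in shKIAA1429. HLA-B was 1.25 and 1.12 times TAPBP in shCtrl and 0.833 and 0.794 times in shKIAA1429. TAPBP was 1.63 and 1.72 times TAP1 in shCtrl and 2.002 and 2.24 times in shKIAA1429. In each of these 5 ratios the groups did not overlap, with an exact permutation p of 0.333, two-sided, the smallest that 2 against 2 samples allow (0.367 adjusted over the 11 ratios). Each of these 5 holds a member whose own groups did not overlap, so the ratios are not separate evidence. Of the 11 ratios, 10 did not overlap between the groups. Many of the pairs share HLA-B or HLA-E, and no ratios of other genes were computed beside them. With HLA-B-258 counted under HLA-C, the HLA-C to HLA-B and B2M to HLA-B ratios overlapped, and the 5 ratios above still did not. The TAP1 to TAP2 ratio overlapped in either case, at 1.46 and 1.34 in shCtrl and 1.95 and 0.999 in shKIAA1429.

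The members also moved with the replicate number. The level in shCtrl 1 exceeded that in shCtrl 2 for 9 of 9 members, against 49.9% of all genes tested, and shKIAA1429 1 exceeded shKIAA1429 2 for 7 of 9, the exceptions being HLA-F and TAP2, against 46.8%. On the log2(FPKM + 1) scale, the median deviation of the members from their own means was 0.19 and −0.069 in shCtrl 1 and 2 and 0.046 and −0.20 in shKIAA1429 1 and 2. On these medians the replicates of each group lay further apart than the averages of the groups. The 3 other genes whose profile over the 4 samples was most like the mean profile of the members were NBPF10, FADS1 and PCNX1. Their root mean square differences from it were 0.011, 0.017 and 0.019 on that scale.

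Among other class I and class I-like genes 9 of 18 were listed and tested, and none passed the thresholds. Of these, 2 lay below and 2 lay above, beside 16.7% and 16.9% of all genes tested. The median log2 fold change was 0.084. MICA and MICB, stress ligands of the receptor NKG2D, lay below in both shKIAA1429 samples. MICA stood at 36.7 and 51.2 FPKM in shCtrl and 26.4 and 36.2 FPKM in shKIAA1429, and MICB at 19.8 and 24.998 FPKM in shCtrl and 14.2 and 19.6 FPKM in shKIAA1429 (limma adjusted p = 0.928 and 0.943). FCGRT, the heavy chain of the neonatal Fc receptor and also a partner of beta-2-microglobulin, stood at 11.9 and 7.58 FPKM in shCtrl and 15.3 and 11.8 FPKM in shKIAA1429, and overlapped. ULBP1, another ligand of NKG2D, overlapped as well, at 2.04 to 5.35 FPKM. The genes that lay above, named after their values were seen, were the iron regulator HFE, at 1.98 and 1.54 FPKM in shCtrl and 2.75 and 4.88 FPKM in shKIAA1429, and the pseudogene HLA-L, at 1.06 and 1.10 FPKM in shCtrl and 1.21 and 1.49 FPKM in shKIAA1429.

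Genes of peptide loading and trimming were listed in 9 of 9 cases, with 0 below, 1 above and a median log2 fold change of 0.038. Over all genes tested, 16.7% lay below and 16.9% above. The 4 most abundant were the chaperones CALR (437 to 522 FPKM), HSPA5 (139 to 179 FPKM) and CANX (101 to 139 FPKM) and the export receptor BCAP31 (72.4 to 80.0 FPKM), whose groups all overlapped. The gene that lay above, named after its values were seen, was the peptide-trimming aminopeptidase ERAP1, at 7.70 and 6.47 FPKM in shCtrl and 8.37 and 7.75 FPKM in shKIAA1429. Of the immunoproteasome and its activators 6 of 6 were tested, with a median log2 fold change of 0.14. Here 1 lay below and 1 above, beside the same shares of all genes tested. The catalytic subunits PSMB8 (58.2 to 73.6 FPKM) and PSMB9 (58.0 to 70.4 FPKM) and the activator PSME1 (52.1 to 69.9 FPKM) overlapped between the groups. PSME3, a nuclear proteasome activator, stood at 60.6 and 75.7 FPKM in shCtrl and 51.3 and 34.7 FPKM in shKIAA1429, below in both (limma adjusted p = 0.882). PSMB10, the third catalytic subunit of the immunoproteasome and also named after its values were seen, stood at 2.44 and 3.35 FPKM in shCtrl and 5.70 and 3.92 FPKM in shKIAA1429, above in both. PSMB9 shares a promoter region with TAP1, and the PSMB9 to TAP1 ratio was 1.56 and 1.58 in shCtrl and 1.73 and 1.75 in shKIAA1429.

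Of 6 cytosolic peptidases tested, 2 lay below, beside 16.7% of all genes tested, and 0 lay above, beside 16.9%. Their median log2 fold change was −0.037. NPEPPS, a cytosolic aminopeptidase, was the most abundant, at 50.9 and 50.9 FPKM in shCtrl and 41.6 and 45.8 FPKM in shKIAA1429, below in both. TPP2, the other one below, was chosen after its values were seen, and its closest values were 10.34 FPKM in shCtrl 2 and 10.31 FPKM in shKIAA1429 2. BLMH (13.6 to 20.4 FPKM), THOP1 (11.6 to 22.2 FPKM) and LAP3 (13.0 to 17.0 FPKM) overlapped.

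Regulators of class I genes were tested in 15 of 15 cases, with 0 past the thresholds and a median log2 fold change of 0.031. Of the 15, 1 lay below and 3 lay above, beside 16.7% and 16.9% of all genes tested. NFYB, a subunit of the factor that binds the ATTGG box, stood at 32.9 and 27.5 FPKM in shCtrl and 23.6 and 21.7 FPKM in shKIAA1429, below in both (limma adjusted p = 0.886). IRF1, which binds the interferon response element, stood the other way, at 22.0 and 16.9 FPKM in shCtrl and 33.6 and 24.0 FPKM in shKIAA1429 (limma adjusted p = 0.901). STAT2, which acts in type I interferon signaling, overlapped at 25.6 to 39.9 FPKM, and so did RFXANK, a subunit of the RFX factor, at 18.5 to 23.6 FPKM. The other 2 that lay above, IRF2 and CIITA, were named after their values were seen, IRF2 lying within 7.32 to 7.80 FPKM in all 4 samples.

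**Figure D3:**
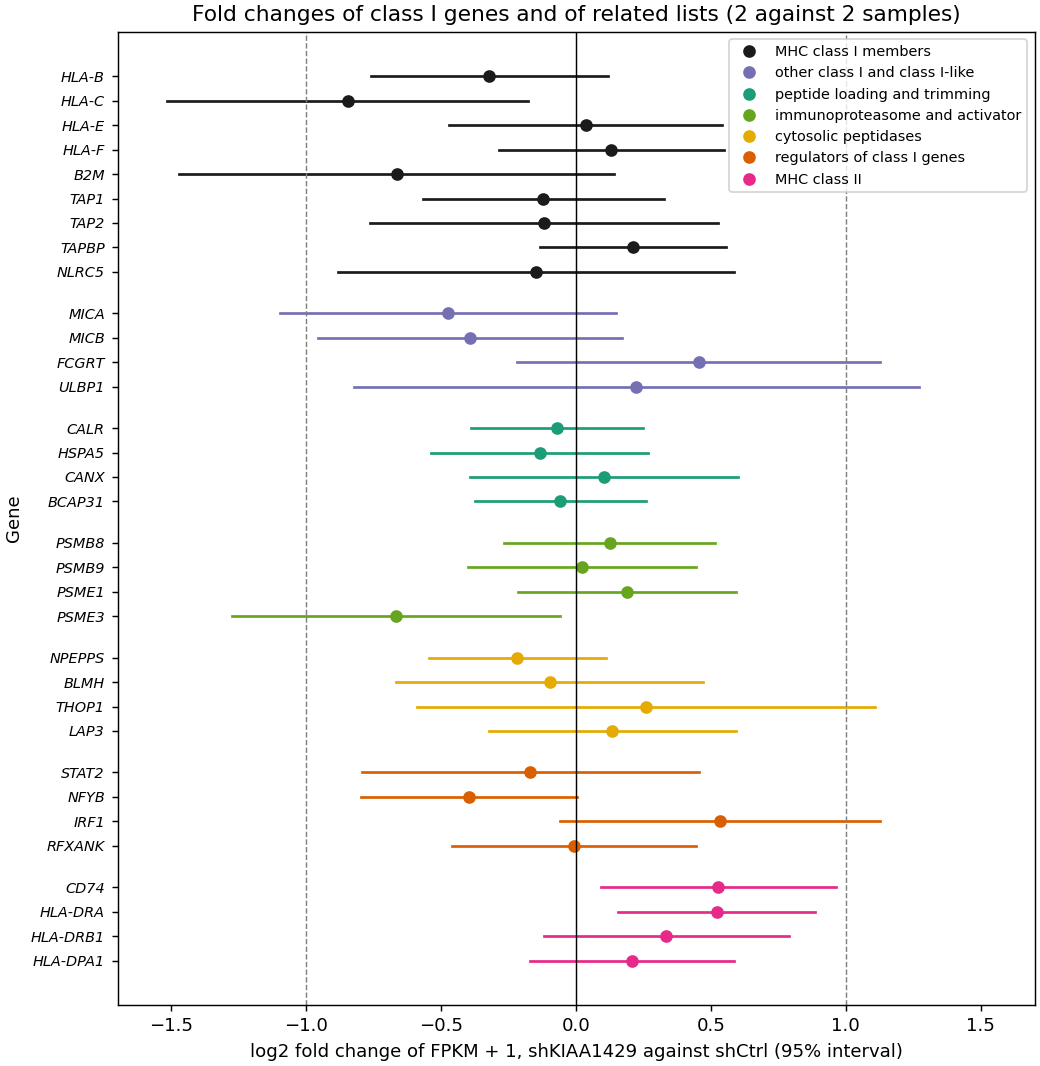
log2 fold change of FPKM + 1, shKIAA1429 against shCtrl, with the 95% interval from limma, for the 9 members and for the 4 most abundant genes of each of 6 related lists, with dashed lines at the fold change threshold of 1. No point lies beyond the threshold, HLA-C is the one member whose interval leaves out 0, and the 4 MHC class II genes lie to the right.

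MHC class II genes, which display peptides from outside the cell and share the RFX and NF-Y factors with class I, were listed in 11 of 12 cases. Of the 8 that were tested, 8 had a positive fold change, 5 lay above in both shKIAA1429 samples, beside 16.9% of all genes, and 0 lay below, with a median log2 fold change of 0.22 and none past the thresholds. These values depended on single samples and on mitochondrial transcripts, and the share of all genes moved too. Without shCtrl 1, 8 lay above, beside 34.1% of all genes. Without shKIAA1429 2, 8 lay above, beside 33.0%, and the median was 0.36. Without mitochondrial transcripts 3 lay above, beside 12.8%. HLA-DMA had a negative fold change without shKIAA1429 1, which left 7 positive. CD74, the invariant chain, stood at 127 and 113 FPKM in shCtrl and 197 and 152 FPKM in shKIAA1429 (log2 fold change 0.53, SE 0.17, limma adjusted p = 0.822). HLA-DRA, the alpha chain of HLA-DR, stood at 67.7 and 56.8 FPKM in shCtrl and 92.0 and 87.0 FPKM in shKIAA1429 (log2 fold change 0.52, SE 0.14, limma adjusted p = 0.730). Both were above in both shKIAA1429 samples without overlap. HLA-DRB1 stood at 39.8 and 34.8 FPKM in shCtrl and 53.4 and 41.7 FPKM in shKIAA1429, and HLA-DPA1 at 37.1 and 31.7 FPKM in shCtrl and 41.3 and 38.3 FPKM in shKIAA1429. The fifth gene above, named after its values were seen, was HLA-DMB, a chain of the class II peptide editor, at 4.39 and 4.04 FPKM in shCtrl and 5.39 and 4.52 FPKM in shKIAA1429.

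The CD74 to HLA-B ratio was 1.41 and 1.59 in shCtrl and 2.90 and 2.55 in shKIAA1429, and the HLA-DRA to HLA-B ratio 0.753 and 0.804 in shCtrl and 1.35 and 1.46 in shKIAA1429. Neither ratio overlapped between the groups (exact permutation p = 0.333 each, the smallest possible). CD74 and HLA-DRA lay above and HLA-B below in both shKIAA1429 samples, so these ratios could not overlap and are not separate evidence. CIITA, the class II transactivator and a relative of NLRC5, stood at 3.06 and 2.06 FPKM in shCtrl and 4.14 and 3.66 FPKM in shKIAA1429, above in both.

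**Figure D4:**
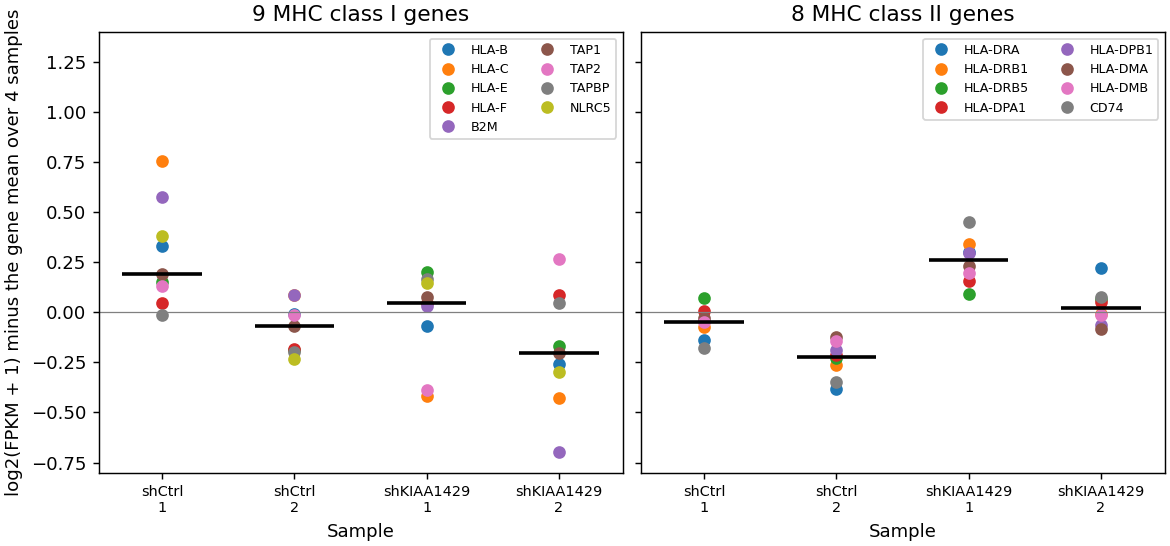
log2(FPKM + 1) of each gene minus its mean over the 4 samples, for the 9 MHC class I genes on the left and the 8 tested MHC class II genes on the right, with black bars at the median. The class I median is highest in shCtrl 1 (0.19) and lowest in shKIAA1429 2 (−0.20), and the class II median is highest in shKIAA1429 1 (0.26) and lowest in shCtrl 2 (−0.22).

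HLA genes resemble one another, and reads can be split between them. In the reference transcripts, 0 of the 100-base windows of HLA-B-249 and HLA-F-217 occurred in another named gene, 0.275% of those of HLA-C-203 did, and 0.613% of those of HLA-E-201 occurred in HLA-G. The alleles of HCCLM3 were not analysed here, and their part in the HLA-B and HLA-C levels was not tested. Overlapping genes also share bases with the members. On the same strand, HLA-B overlaps DHFRP2 over 1421 exonic bases and TAP2 overlaps the gene without a name over 2023. Neither of these was listed. TAP1 overlaps PSMB8-AS1 on the opposite strand over 672 exonic bases, and that gene was listed too, so without strand their reads cannot be told apart. Of the 25 member transcripts 17 were found in GENCODE 44, all at overlapping positions, and 10 of these had the same start and end.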

How the data were processed

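RNA of 4 HCCLM3 samples was measured, 2 shCtrl and 2 shKIAA1429, grouped by title. The authors deposited FPKM values per transcript, without counts, on hg19 (GRCh37), with Bowtie2 2.1.0 in the submitters' processing notes; their methods describe TopHat, HTSeq and DESeq for gene counts, and the tool behind the FPKM is not given in the sources used here. FPKM depends on the other RNAs of a library and on how reads were shared between transcripts, and the depth is unknown. Transcripts were summed per gene, features with at least 1 FPKM in at least 2 samples were kept, and log2(FPKM + 1) was compared with limma 3.58.1 in R 4.3.3 (trend, two-sided), with Benjamini-Hochberg adjustment over all features tested, after a test on simulated data. A fold change on this scale understates that of low genes. Single ratios were compared by exact permutation of the samples. From each list the 4 most abundant genes were named, and 3 genes for the likeness of their profile. The members and lists were chosen with earlier results of these data known. Alternatives covered scaling, pseudocount, filter, transcript choice, replicate block and leaving out samples. Some genes of the related lists are not reported here and were left out of their counts.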

Additional observations from a re-analysis of the deposited data

How the results depend on the processing

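No member passed both thresholds under any of the 14 alternatives to gene sums, nor did any member transcript under the 2 tried, and 117 of 126 member fold changes kept their direction. Part of these 117 were fixed in advance. Changing the filter, adding the replicate block or using a robust limma fit cannot alter the fold change of a member. Counting HLA-B-258 under HLA-C alters only HLA-B and HLA-C. The median log2 fold change of the members was −0.12, and −0.30 with the largest transcript of each gene. Leaving out 1 sample gave −0.26 to 0.018. The count of members below was 3, and 3 to 5 leaving out 1 sample, when 30.6% to 38.3% of all genes lay below; the count above was 1, 2 with upper quartile scaling, and 1 to 3 leaving out 1 sample, when 30.6% to 34.1% of all genes lay above (these counts were added after seeing the data). In the order of mean levels 7 of 9 members kept their place with protein-coding transcripts and 6 with HLA-B-258 under HLA-C. Leaving out 1 sample moved HLA-E between −0.15 and 0.22, TAP1 between −0.26 and 0.018, TAP2 between −0.45 and 0.21 and NLRC5 between −0.46 and 0.16, each changing sign. HLA-E was −0.0072 without mitochondrial transcripts and HLA-F −0.076 with its largest transcript; for these the cause was not tested. VIRMA ranged from −0.80 to −0.26 leaving out 1 sample. With a block for the replicate number, the lowest member adjusted p was 0.371 (B2M), and 0 members passed; 3 members (HLA-B, HLA-C and B2M) and 10.9% of all genes, against 1 and 5.63% without the block, had an unadjusted p under 0.05, as had 3 member transcripts against 1. Same-numbered samples deviated together (correlation 0.32 over 11657 genes), but only 2 pairs exist and the labels tie no number to a shared culture or day. With 2 samples a group and unknown depth, absence of a call does not show equal levels.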
